A study of Mus musculus with 18 samples.

Results

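Lgals7, Ccn4, Eomes, Sucnr1, Rln3, Slc39a4 and Gm4847 are 7 of the 19057 named genes on a mouse bead array with which messenger RNA of mast cells lacking Dnmt3a was compared with that of wild-type mast cells. They were picked from the same arrays because the excess of the knockout over the wild type appeared or grew after stimulation through IgE and antigen. The difference between the genotypes and its growth are therefore given for these genes as a description, with no test. The array carries 12 probes for them among 45281, and 9 of the 12, at least 1 for each gene, were above a detection limit on at least 3 arrays. Of all named genes 8985 could be tested.

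There were 18 arrays in 6 groups of 3, namely Dnmt3a knockout cells untreated and after 4 h or 24 h of IgE and antigen, and wild-type cells in the same 3 conditions. All came from female mice and are labelled as mast cells of 5 weeks, without saying whether this is the age of the mouse or of the culture. The labels number the knockout samples 3, 4 and 6 and the wild-type samples 6, 8 and 9, and each number, read here as 1 culture, occurs once in every condition. They do not say how Dnmt3a was deleted or whether a culture came from 1 mouse, so p-values measure only the spread among arrays of these cultures. The fit without a block took the arrays as independent, though each culture gave 1 array in every condition. Slide 1 held knockout culture 3 and wild-type culture 6, slide 2 knockout 4 and wild-type 8, and slide 3 knockout 6 and wild-type 9.

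Dnmt3a is a DNA methyltransferase that places methyl groups on cytosines, mostly in CG dinucleotides, without a methylated template strand. Mast cells carry IgE on a high-affinity receptor, and antigen that crosslinks it triggers the release of stored granules and then the transcription of cytokine and other genes. The genes described here encode proteins of several kinds. Lgals7 encodes galectin-7, a sugar-binding protein known from stratified epithelia, Ccn4 a secreted matrix protein that was found as a target of Wnt signalling, and Rln3 a relaxin-family peptide hormone of the brain. Sucnr1 encodes the cell surface receptor for succinate, Slc39a4 a plasma membrane importer of zinc, and Eomes a T-box transcription factor of cytotoxic lymphocytes and the early embryo. Gm4847, also called Fmo12, lies between Gm4846 and Fmo9 among genes for flavin monooxygenases, enzymes that oxidise nitrogen and sulfur compounds.

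Since Dnmt3a acts on CG dinucleotides, the 250 bases before the annotated start are shown for the 5 of these genes that were matched by symbol to the RefSeq promoter table (build GRCm38.p6), each in the direction of its gene and with every CG in capitals.
Lgals7 (chr7:28864136-28864385, plus strand): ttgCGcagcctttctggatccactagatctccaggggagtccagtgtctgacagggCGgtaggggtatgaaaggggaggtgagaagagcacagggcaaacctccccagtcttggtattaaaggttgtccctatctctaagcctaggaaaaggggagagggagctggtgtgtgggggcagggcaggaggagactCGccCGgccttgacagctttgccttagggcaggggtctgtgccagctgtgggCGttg
Eomes (chr9:118477939-118478188, plus strand): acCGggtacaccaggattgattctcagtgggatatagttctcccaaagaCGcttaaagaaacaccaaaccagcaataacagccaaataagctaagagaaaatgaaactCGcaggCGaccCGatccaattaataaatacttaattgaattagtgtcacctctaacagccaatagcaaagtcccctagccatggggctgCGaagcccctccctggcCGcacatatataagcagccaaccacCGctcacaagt
Rln3 (chr8:84044980-84045229, minus strand): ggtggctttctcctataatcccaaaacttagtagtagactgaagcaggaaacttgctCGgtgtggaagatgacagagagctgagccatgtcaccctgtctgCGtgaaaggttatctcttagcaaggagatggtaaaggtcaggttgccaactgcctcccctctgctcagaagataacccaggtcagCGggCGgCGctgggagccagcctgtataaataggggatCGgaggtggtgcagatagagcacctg
Sucnr1 (chr3:60081619-60081868, plus strand): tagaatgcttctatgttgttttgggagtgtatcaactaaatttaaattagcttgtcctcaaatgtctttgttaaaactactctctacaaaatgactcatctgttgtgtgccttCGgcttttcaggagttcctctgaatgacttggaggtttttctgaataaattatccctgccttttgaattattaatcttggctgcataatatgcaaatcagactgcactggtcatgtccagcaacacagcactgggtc
Gm4847 (chr1:166647694-166647943, minus strand): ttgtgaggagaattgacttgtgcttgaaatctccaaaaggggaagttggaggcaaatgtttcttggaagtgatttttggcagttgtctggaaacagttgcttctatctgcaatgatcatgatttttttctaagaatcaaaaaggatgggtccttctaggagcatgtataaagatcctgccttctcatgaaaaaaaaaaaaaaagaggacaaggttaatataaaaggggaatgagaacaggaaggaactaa
Ccn4 and Slc39a4, both on chromosome 15, were not in that table.

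In CG count the windows of Eomes, Rln3 and Lgals7 lay near the median of all promoters, and those of Sucnr1 and Gm4847 below the lower quartile. Eomes had 8, Rln3 6, Lgals7 5, Sucnr1 1 and Gm4847 0, against a median of 6 and quartiles of 2 and 16 in the 32851 promoter windows of the table. The share of all windows with fewer CG was 57% for Eomes, 49.6% for Rln3, 44.4% for Lgals7, 7.87% for Sucnr1 and 0% for Gm4847. Of all windows 92.1% held at least 1 CG. Methylation itself was not measured. Motifs of factors that act after IgE crosslinking or in mast cells were also counted on both strands. The AP-1 motif TGANTCA, which reads the same on both strands, occurred 1 time in the Sucnr1 window and in 6.75% of all windows. The NFAT motif GGAAAA occurred 1 time in the Lgals7 window and in 20.4% of all windows, and the GATA motif AGATAA occurred 2 times in the Rln3 window and in 9.99% of all windows. The Eomes and Gm4847 windows held no match to these 3 motifs.

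**Figure D1:**
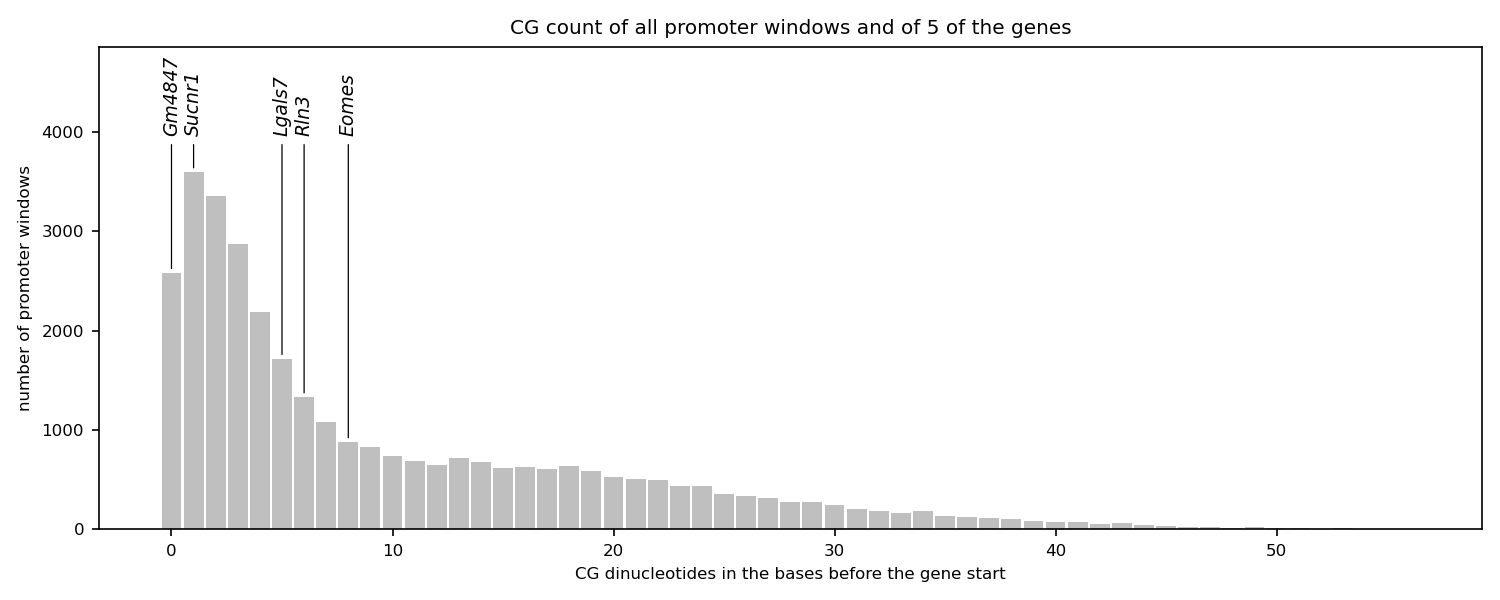
Number of RefSeq promoter windows (vertical axis) by the number of CG dinucleotides in the 250 bases before the gene start (horizontal axis), with the counts of Gm4847, Sucnr1, Lgals7, Rln3 and Eomes marked. The 5 genes lie between 0 and 8, and all 32851 windows have a median of 6 and quartiles of 2 and 16.

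Median probe signals ran from 93.4 to 159 and detection limits from 107 to 222 on a linear scale, and each array had from 28.7% to 33.8% of its probes above the limit. The 3 Dnmt3a probes were above the limit on 0 of 18 arrays (signals 83.1 to 150), so the targeted gene could not check the genotype labels. The number of arrays limits the precision. The array farthest from the others of its group was wild-type culture 9 at 4 h, whose log2 values differed from the mean of the other 2 with an SD of 0.59 over 8985 genes, against 0.25 to 0.53 on the other 17 arrays. Of 14 mast cell markers on the array, 12, among them Kit, Fcer1a and Cpa3, were above the limit on all 18 arrays. The summed linear signal of the 14 was 142105 to 146000 in untreated knockout cells, 114791 to 157153 at 4 h and 113114 to 139090 at 24 h. In wild-type cells it was 151232 to 163511, 133354 to 171188 and 137865 to 151245, so that the genotypes did not overlap untreated. Fibroblast markers were above the limit on 0 arrays for 9 of 10 genes, Col1a1 and Dcn among them. The basophil markers Mcpt8, Cd200r3 and Il3ra were above it on all 18 arrays and Prss34 on 9 knockout and 6 wild-type arrays, while Itga2 was above it on 0. Of 7 macrophage and monocyte markers, Fcgr1 and Mertk were above it on 0 arrays and Csf1r and Cd14 on 1 array each. Adgre1 was above it on all 18, with a mean log2 intensity of 9.15 in the knockout and 8.07 in the wild type. Cx3cr1 was above it on 15 arrays, with means of 8.19 in the knockout and 8.53 in the wild type, and Lyz2 on 12, with 7.33 and 7.20. The summed linear signal of these 7 was 1591 to 2164 in untreated knockout cells, 1073 to 1285 at 4 h and 1363 to 1587 at 24 h, against 1516 to 2365, 771 to 1135 and 916 to 1287 in wild-type cells, so that the genotypes did not overlap at 24 h. The part of these markers in the results was not tested.

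**Figure D2:**
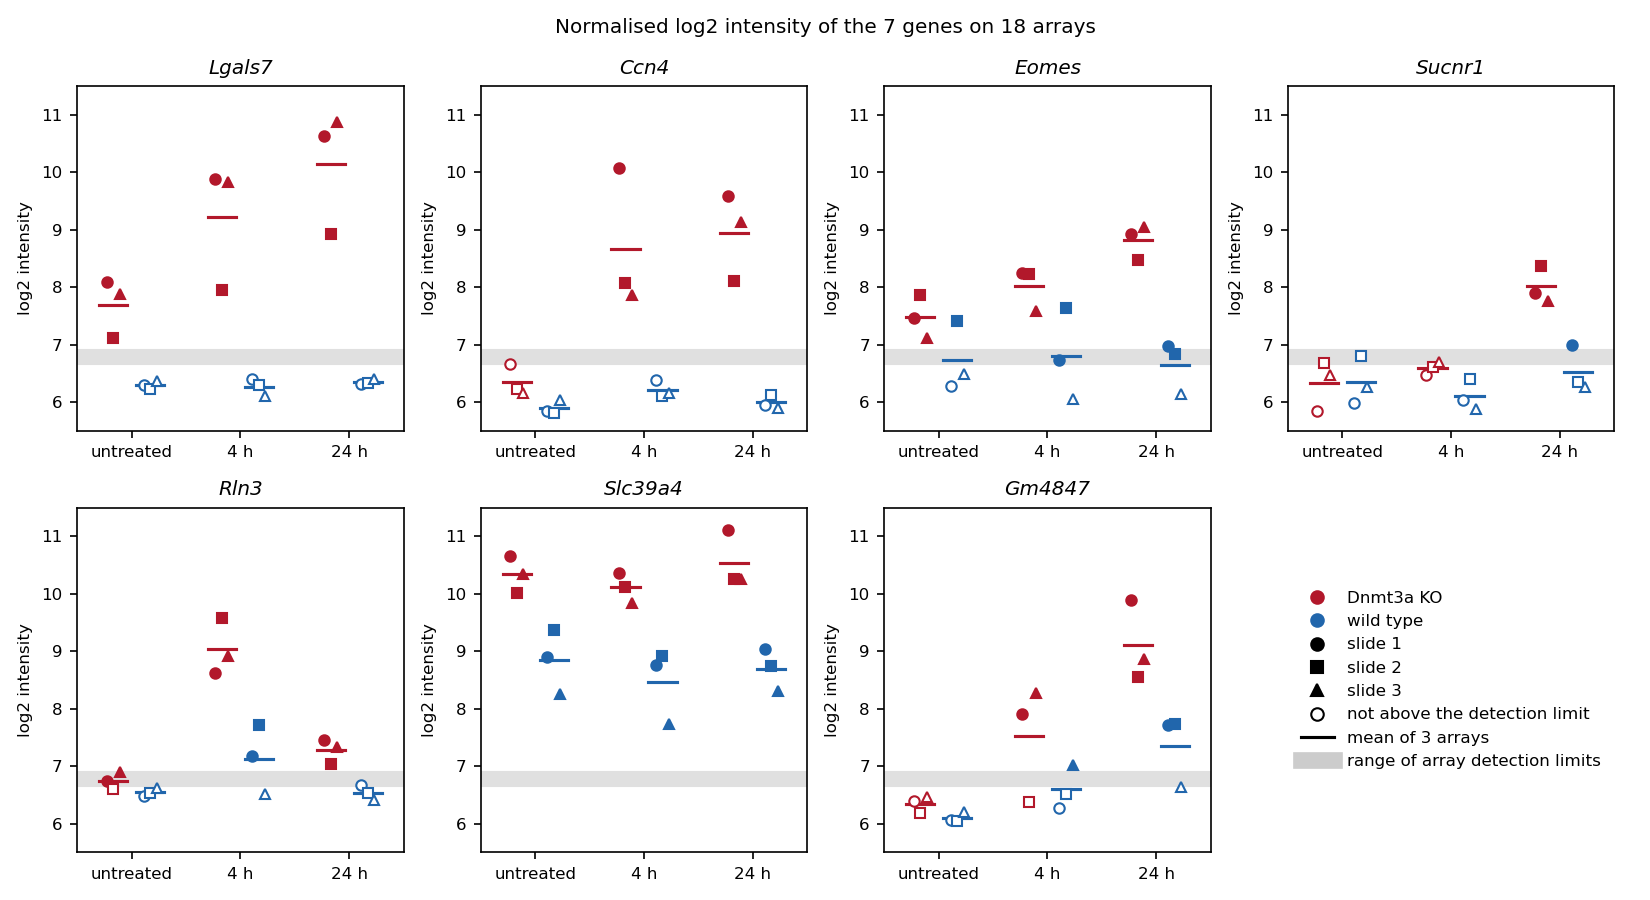
Normalised log2 intensity (vertical axis) of the 7 genes on each array, by condition (horizontal axis), with knockout arrays in red left of wild-type arrays in blue. Symbols stand for slides, open symbols lie below the array's detection limit, lines are means of 3 arrays and the grey band is the range of the limits. Lgals7 lay above the limit on all 9 knockout arrays and on 0 of 9 wild-type arrays, and Ccn4 on 6 stimulated knockout arrays only.

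Among the genes for secreted proteins, Lgals7 was detected in every knockout sample and in no wild-type sample. Its normalised log2 intensity in knockout cultures 3, 4 and 6 was 8.08, 7.12 and 7.89 untreated, 9.87, 7.95 and 9.83 at 4 h and 10.62, 8.92 and 10.88 at 24 h. In wild-type cultures 6, 8 and 9 it was 6.30, 6.24 and 6.36 untreated, 6.41, 6.31 and 6.10 at 4 h and 6.31, 6.33 and 6.41 at 24 h, all below the limit. The lowest knockout value of each condition was above the highest wild-type value, and culture 4 was the lowest of the knockout cultures throughout. Since no wild-type array detected the gene, folds are lower bounds, set against the lowest signal that counted as detected: at least 1.96-fold untreated, 5.58-fold at 4 h and 10.7-fold at 24 h. In bulk RNA, fewer cells of a type and less RNA per cell cannot be told apart.

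The log2 difference in Lgals7, knockout minus wild type, was 1.39 untreated, 2.95 at 4 h and 3.79 at 24 h. Within the slides it ran from 0.88 to 1.78, from 1.65 to 3.73 and from 2.60 to 4.47. In the order of its 6 group means the knockout groups at 24 h, 4 h and untreated came first, neighbours among them overlapped, and a gap separated the lowest of them from all wild-type groups, which overlapped each other. The array has 2 further Lgals7 probes, which followed the first over the 18 arrays with a Pearson correlation of 0.98 and 0.94 and were above the limit on 8 and 5 knockout arrays. For these the fold at 24 h was at least 4.87 and at least 1.90. Keratinocyte and epithelial markers, which would accompany galectin-7 in skin, were above the limit on 0 arrays for 9 of 11 genes, including Krt5, Krt14 and Trp63. Cdh1 was above it on 3 knockout and 3 wild-type arrays and Krt15 on 1 knockout array. Their summed linear signal was 772 to 812 in untreated knockout cells, 786 to 826 at 4 h and 771 to 809.8 at 24 h, against 779 to 814, 787 to 799 and 763 to 806 in wild-type cells.

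Ccn4 was detected on the 6 stimulated knockout arrays and on no other. In knockout cultures 3, 4 and 6 its log2 intensity was 6.66, 6.23 and 6.16 untreated, 10.06, 8.08 and 7.86 at 4 h and 9.58, 8.10 and 9.13 at 24 h. In wild-type cultures 6, 8 and 9 it was 5.84, 5.81 and 6.04 untreated, 6.39, 6.11 and 6.16 at 4 h and 5.95, 6.13 and 5.90 at 24 h. The stimulated knockout arrays were all above the untreated knockout arrays and above all 9 wild-type arrays, and culture 3 had the highest value at both times. Ccn4 was at least 3.81-fold above wild type at 4 h and at least 4.63-fold at 24 h, and within the knockout at least 3.76-fold and 4.53-fold above untreated cells. Untreated, both genotypes were below the limit, and no fold is given. The log2 difference, knockout minus wild type, was 0.45 untreated, 2.45 at 4 h and 2.95 at 24 h, positive within each slide. The means at 24 h and 4 h in the knockout overlapped, as did those of all the other groups with their neighbours in order. A second Ccn4 probe was above the limit only in knockout culture 3 at 4 h and 24 h, with log2 values of 7.68 and 7.27, so that the other cultures' values rest on 1 probe.

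Rln3 differed from the other genes in time course, with its highest values at 4 h in both genotypes. Its log2 intensity in knockout cultures 3, 4 and 6 was 6.74, 6.60 and 6.89 untreated, 8.62, 9.57 and 8.92 at 4 h and 7.46, 7.03 and 7.33 at 24 h. Wild-type cultures 6, 8 and 9 had 6.49, 6.53 and 6.61 untreated, 7.17, 7.71 and 6.52 at 4 h and 6.68, 6.52 and 6.41 at 24 h. At 4 h every knockout array was above every wild-type array, and wild-type culture 9 was the only culture not above its own untreated level. The knockout at 4 h was 3.74-fold above wild type, where 2 of 3 arrays detected the gene, and 4.90-fold above untreated knockout cells. At 24 h it was at least 1.46-fold above wild type. The log2 difference between the genotypes was 0.20 untreated, 1.90 at 4 h and 0.74 at 24 h, so that the excess grew and shrank with the transcript, and it was positive within each slide. Without the outlying 4 h array of wild-type culture 9 the difference at 4 h was 1.60. Only the 4 h knockout group was separate from its neighbour in the order of the 6 groups.

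The succinate receptor gene Sucnr1 was near the limit until 24 h. In knockout cultures 3, 4 and 6 its log2 intensity was 5.84, 6.68 and 6.47 untreated, 6.47, 6.61 and 6.70 at 4 h and 7.91, 8.37 and 7.77 at 24 h, and only the 24 h values were above the limit. Wild-type cultures 6, 8 and 9 had 5.98, 6.80 and 6.26 untreated, 6.03, 6.40 and 5.87 at 4 h and 6.99, 6.35 and 6.26 at 24 h, with 1 array, culture 6 at 24 h, above the limit. The 24 h knockout arrays were above all 15 other arrays. At 4 h the knockout arrays were also all above the wild-type arrays, though none of the 6 was above the limit, and untreated the genotypes overlapped. The log2 difference, knockout minus wild type, was −0.01 untreated, 0.49 at 4 h and 1.48 at 24 h. Within the slides it ran from −0.14 to 0.21 untreated, from 0.21 to 0.83 at 4 h and from 0.92 to 2.02 at 24 h. At 24 h this was 2.79-fold, a size that rests partly on wild-type signals below the limit.

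Slc39a4, the zinc importer gene, showed the pattern for which the genes were picked least, since most of its excess was already present without stimulation. It was above the limit on all 18 arrays. Knockout cultures 3, 4 and 6 had log2 intensities of 10.65, 10.01 and 10.35 untreated, 10.36, 10.13 and 9.84 at 4 h and 11.11, 10.26 and 10.25 at 24 h. Wild-type cultures 6, 8 and 9 had 8.90, 9.37 and 8.26 untreated, 8.76, 8.91 and 7.73 at 4 h and 9.05, 8.74 and 8.30 at 24 h. The 9 knockout arrays were all above the 9 wild-type arrays, while the 3 conditions of either genotype overlapped. The knockout was 2.81-fold above wild type untreated, 3.12-fold at 4 h and 3.59-fold at 24 h. On the log2 scale the difference was 1.49, 1.64 and 1.84, and its growth of 0.15 at 4 h and 0.35 at 24 h was smaller than its standard error of 0.49. The group means lay in the order of genotype, and the lowest knockout mean was 10.11 ± 0.26, against 8.84 ± 0.56 for the highest wild-type mean (SD, n = 3 each). A second Slc39a4 probe was above the limit on 1 array, knockout culture 3 at 24 h.

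Eomes, the T-box factor gene, was detected in all 9 knockout samples and in 5 of 9 wild-type samples. Its log2 intensity in knockout cultures 3, 4 and 6 was 7.47, 7.86 and 7.12 untreated, 8.24, 8.24 and 7.59 at 4 h and 8.93, 8.47 and 9.05 at 24 h. In wild-type cultures 6, 8 and 9 it was 6.28, 7.41 and 6.48 untreated, 6.73, 7.63 and 6.06 at 4 h and 6.97, 6.84 and 6.14 at 24 h. Wild-type culture 8 reached into the knockout range untreated and at 4 h, and at 24 h the genotypes were separate. The knockout was 1.69-fold above wild type untreated, 2.32-fold at 4 h and 4.50-fold at 24 h, with 1, 2 and 2 wild-type arrays above the limit. The log2 difference was 0.76, 1.22 and 2.17 and positive within each slide, and at 4 h it was 0.84 without the outlying array of wild-type culture 9. In order of level only the 24 h knockout group was separate from its neighbour. A second Eomes probe followed the first (Pearson correlation 0.92 over 18 arrays) and was above the limit on 2 knockout arrays at 24 h.

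Markers of T and NK cells, in which Eomes is best known, were measured beside it. Of 15 on the array 12 were above the limit on 0 arrays, including Cd3e, Cd8a, Ncr1 and Klrb1c. The exceptions were Cd8b1 on 18 arrays, Il7r on 17 and Nkg7 on 9. Nkg7 was above the limit on 6 knockout and 3 wild-type arrays, with a mean log2 intensity of 7.52 and 6.84. Il7r averaged 8.35 in the knockout and 7.60 in the wild type, while Cd8b1 averaged 11.11 and 11.29. Their part in the Eomes values was not tested. The summed linear signal of the list was 3317 to 4183 in untreated knockout cells, 2992 to 3245 at 4 h and 3841 to 5096 at 24 h, against 2579.5 to 5168, 2670.4 to 2936 and 4695 to 5641 in wild-type cells. At 4 h the genotypes did not overlap in this sum, and the knockout was higher. Cd8b1 had the highest mean of the list and weighed most in the sum.

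Gm4847 was not detected in untreated cells of either genotype and was detected in stimulated cells of both. In knockout cultures 3, 4 and 6 its log2 intensity was 6.40, 6.18 and 6.46 untreated, 7.92, 6.38 and 8.27 at 4 h and 9.89, 8.56 and 8.87 at 24 h. In wild-type cultures 6, 8 and 9 it was 6.07, 6.05 and 6.20 untreated, 6.28, 6.51 and 7.02 at 4 h and 7.71, 7.73 and 6.63 at 24 h. At 4 h the genotypes overlapped, since knockout culture 4 was still below the limit, and at 24 h they were separate. The knockout was 1.89-fold above wild type at 4 h, where 1 of 3 wild-type arrays was above the limit, and 3.36-fold at 24 h, where 2 of 3 were. At 24 h it was at least 5.08-fold above untreated knockout cells while the wild type was at least 1.55-fold above untreated wild-type cells. The log2 difference between the genotypes was 0.24 untreated, 0.92 at 4 h and 1.75 at 24 h. Within slide 2 it was −0.13 at 4 h, and the 4 h difference was 1.49 without knockout culture 4 and 0.55 without knockout culture 6. Only the 24 h knockout group was separate from its neighbour in order.

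**Figure D3:**
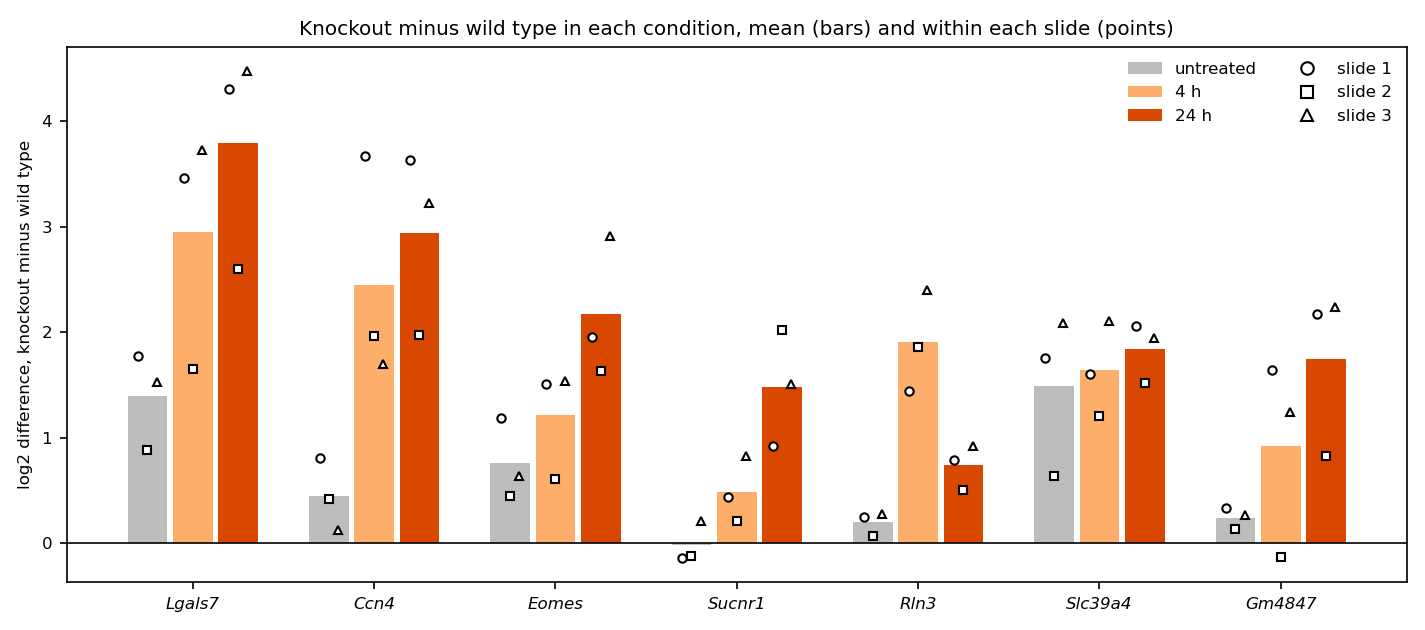
Log2 difference, knockout minus wild type (vertical axis), of each gene (horizontal axis) without stimulation, at 4 h and at 24 h. Bars are differences of the means of 3 arrays a group and points are the differences within slides 1, 2 and 3. Lgals7 reaches 3.79 at 24 h, Rln3 peaks at 1.90 at 4 h and Slc39a4 stays between 1.49 and 1.84.

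Set side by side, the 3 knockout arrays were all above the 3 wild-type arrays for 3 of the 7 genes untreated, 5 at 4 h and 7 at 24 h. Over the 8985 tested genes this held for 4.77% untreated, 4.35% at 4 h and 5.95% at 24 h, but as the rule used these values nothing is read from the comparison. In the growth of the difference at 24 h Ccn4 ranked 1, Lgals7 2, Gm4847 12, Sucnr1 13, Eomes 18, Rln3 247 and Slc39a4 871 of 8985 genes. At 4 h Ccn4 ranked 2, Rln3 4, Lgals7 8, Gm4847 94, Sucnr1 255, Eomes 351 and Slc39a4 2585. Both times share the untreated arrays. Lgals7 and Ccn4 passed the filter on dim probes through knockout arrays alone, and Sucnr1 through 3 knockout arrays and 1 wild-type array, so that these genes had to differ between the genotypes once they were kept.

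The response to stimulation averaged over both genotypes, relative to untreated cells, was tested only for Rln3, Eomes and Slc39a4. Ccn4, Sucnr1 and Gm4847 were above the limit on 0 of 6 untreated arrays and passed the filter through stimulated arrays, so that a rise was built in. In Lgals7, with 0 of 9 wild-type arrays above the limit, the averaged response amounted to the knockout's share of the growth by which the gene was picked. For these 4 genes the changes are given without a test.

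Rln3 rose at 4 h by 1.44 ± 0.18 averaged over the genotypes (log2 change and standard error, 5 of 6 cultures up, adjusted p = 0.000289 in limma). Of all tested genes 7.45% rose at 4 h. Rln3 changed at 4 h by 1.89, 2.97 and 2.03 in knockout cultures 3, 4 and 6, against 0.69, 1.18 and −0.10 in wild-type cultures 6, 8 and 9. Wild-type cells were above the limit on 2 of 3 arrays at 4 h and on none untreated, and the larger share of the averaged value came from the knockout, whose mean change was 2.29, against 0.59 in the wild type. The knockout values at 4 h also entered the rule that picked the gene. The averaged p-value thus rests partly on values by which Rln3 was picked, and it says nothing of wild-type cells alone. At 24 h the averaged change of Rln3 was 0.26 ± 0.18 (adjusted p = 0.396 in limma), and 3.65% of all tested genes rose.

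Eomes had an averaged change of 0.31 ± 0.27 at 4 h (adjusted p = 0.459 in limma) and 0.63 ± 0.27 at 24 h (4 of 6 cultures up, adjusted p = 0.152 in limma). At 24 h its adjusted p in limma was 0.0426 with the replicate block (the culture) and 0.0519 with the slide block. The change of Eomes at 24 h was 1.46, 0.61 and 1.94 in the knockout cultures, against 0.69, −0.58 and −0.34 in the wild-type cultures. Slc39a4 had averaged changes of −0.30 ± 0.24 at 4 h and 0.03 ± 0.24 at 24 h (adjusted p = 0.431 and 0.957 in limma).

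Among the genes given without a test, Gm4847 was above the limit on 3 of 6 stimulated wild-type arrays, Sucnr1 on 1, and Lgals7 and Ccn4 on 0. The log2 change of Gm4847 from untreated to 24 h was 3.48, 2.38 and 2.40 in the knockout cultures, against 1.64, 1.68 and 0.43 in the wild-type cultures. The change of Lgals7 was 2.54, 1.81 and 2.99 in the knockout cultures, against 0.01, 0.09 and 0.05 in the wild-type cultures, where all values were at background. The change of Ccn4 at 4 h was 3.41, 1.85 and 1.70 in the knockout cultures, against 0.55, 0.30 and 0.12 in the wild-type cultures, again at background. That of Sucnr1 at 24 h was 2.07, 1.69 and 1.30 in the knockout cultures, against 1.01, −0.45 and 0.00 in the wild-type cultures.

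**Figure D4:**
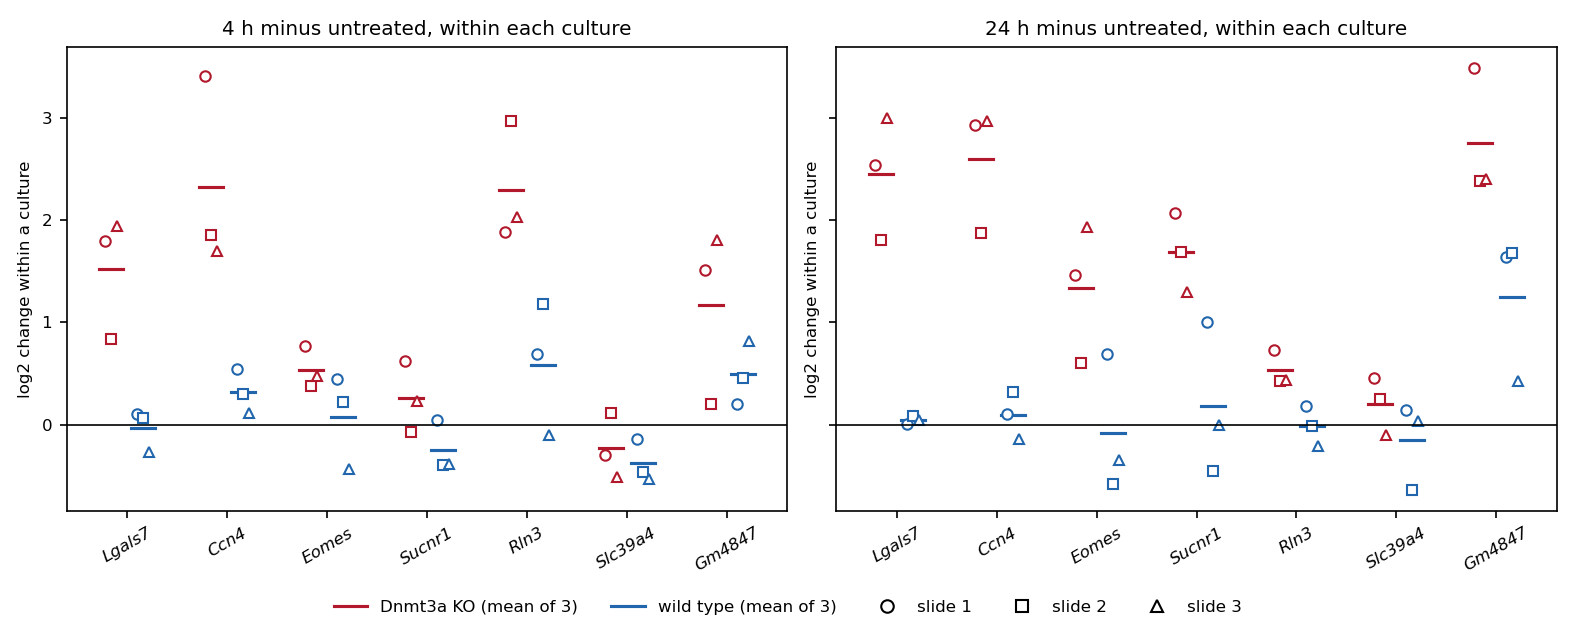
Log2 change within each culture (vertical axis) at 4 h (left panel) and 24 h (right panel) against the same culture untreated, for each gene (horizontal axis), knockout in red and wild type in blue. Symbols stand for slides and lines for means of 3 cultures. In Gm4847 all 6 cultures are above 0 at both times, and in Lgals7 the wild-type cultures stay within 0.26 of 0 while the knockout cultures reach 2.99.

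Genes of the pathways and families to which these 7 belong were examined as well. Of 85 tested genes on 8 lists none passed limma's test between knockout and wild type in any condition, against 0.256% of all tested genes untreated (23 genes, 16 higher), 0.189% at 4 h (17, 16 higher) and 0.278% at 24 h (25, 23 higher). At an unadjusted p under 0.05 there were 8, 7 and 6 list genes, against 527, 452 and 453 of the 8985 tested genes. With the slide as a block Il18rap, which encodes a subunit of the interleukin-18 receptor, was lower in the knockout at 4 h (log2 −0.76, adjusted p = 0.0241 in limma). The slide block also raised the counts over all genes to 46 untreated, 38 at 4 h and 51 at 24 h. Il18rap passed at 4 h with array weights too (log2 −0.80, adjusted p = 0.0341 in limma), where 58 genes passed over all. With array weights, which raised the count over all genes at 24 h to 503, 7 list genes passed at 24 h, namely Aldh5a1, Egln3 and Mt2 higher and Dvl1, Igf1r, Il18rap and Mbd1 lower.

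The response averaged over the genotypes reached 9 list genes upwards and 6 downwards at 4 h, and 3 upwards and 4 downwards at 24 h. Slc30a3 and Slc13a3 at 4 h and Il12rb2 at 24 h were above the limit on 0 untreated arrays, so that their rises were built in by the filter. These list calls depended on single cultures: the 15 at 4 h became 5 when knockout culture 3 or 4 was left out, 9 when wild-type culture 6 was and 4 when wild-type culture 8 was. The 7 at 24 h became 0 when wild-type culture 6 was left out, 1 for wild-type culture 8 and 2 for any 1 of the others. With median scaling there were 8 at 4 h and 6 at 24 h, and with the replicate block 20 at either time. Over all tested genes 669 rose and 709 fell at 4 h, and 328 rose and 407 fell at 24 h. The totals of 1378 and 735 were 2346 and 1740 with the replicate block and 2480 and 1814 with the slide block. With median scaling in place of quantile normalisation 82.2% of the called genes were higher at 4 h, against 48.5%, and 90.3% at 24 h, against 44.6%, with the median of all genes at 0.08 and 0.19.

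In the relaxin and insulin family, 6 of 13 genes on the array could be tested. The growth factor gene Igf2 rose by 1.90 ± 0.24 at 4 h and 0.90 ± 0.24 at 24 h (adjusted p = 0.000289 and 0.0317 in limma), Insl6 by 1.74 ± 0.51 at 4 h and Insl3 by 0.91 ± 0.21 at 24 h. The insulin receptor gene Insr fell by 0.69 at 4 h and by 0.83 at 24 h. Like Rln3, Igf2 was highest at 4 h in both genotypes, and it was above the limit on 1 of 6 untreated arrays. It averaged 8.27 ± 0.39 at 4 h and 7.28 ± 0.58 at 24 h in the knockout, against 8.74 ± 0.55 and 7.73 ± 0.64 in the wild type (log2, SD, n = 3 each). Between the genotypes Igf1r had the largest differences of the list, −0.67, −0.67 and −0.75 in the 3 conditions, none past the threshold. The list's median log2 change was 0.10 at 4 h and 0.66 at 24 h, against −0.03 and −0.01 for all tested genes.

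Among 17 tested zinc transporter and metallothionein genes 3 rose at 4 h, with Slc30a3 (1.1), which loads zinc into vesicles, and Slc39a13 (0.57) first, and the zinc exporter gene Slc30a2 fell by 0.95. Mtf1, the zinc-sensing transcription factor, rose by 0.53 at 4 h, as the third of these, and fell by 0.53 at 24 h relative to untreated cells. Slc30a3 was above the limit only at 4 h, on 2 knockout and 2 wild-type arrays, so that its rise was built in by the filter on dim probes. The list had medians of 0.02 and 0.07. The largest differences between knockout and wild type were 0.73 for Mt1 untreated and 0.87 and 0.58 for Slc30a2 at 4 h and 24 h, with adjusted p = 0.608, 0.932 and 1 in limma.

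Of 11 tested genes of the T-box and cytotoxic lymphocyte programme, Id2, an inhibitor of helix-loop-helix factors, rose by 0.49 at 4 h. Stat4, which transmits interleukin-12 signals, fell by 1.26 and Il18r1 by 1.09, and Il12rb2 rose by 0.47 at 24 h. Il12rb2 was above the limit only at 24 h, on 1 knockout and 3 wild-type arrays, so that its rise was built in by the filter. Between the genotypes the largest differences were −0.60 for Gzmb untreated, −0.76 for Il18rap at 4 h and −0.57 for Stat4 at 24 h. Il18rap also had −0.57 at 24 h. All of these were lower in the knockout, and none was past the threshold in limma with no block or weights. The list had a median of −0.18 at both times in the averaged response.

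Of 12 tested genes of Wnt signalling and the CCN family, the receptor gene Fzd7 rose by 0.57 at 4 h and the beta-catenin gene Ctnnb1 fell by 0.47 at 24 h. Ctnnb1 also had the largest difference between knockout and wild type untreated (−0.50) and at 4 h (−0.49), neither past the threshold. At 24 h the largest was 0.43 for Ccn3 (adjusted p = 1 in limma). The 12 genes had median differences of −0.03, −0.11 and −0.12 between the genotypes in the 3 conditions, against −0.02, −0.01 and −0.02 for all tested genes.

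Of 21 tested genes of succinate metabolism and receptor signalling, the carrier gene Slc13a3 rose by 0.56 and the G protein gene Gnai2 fell by 0.33 at 4 h, and Sdhaf2, an assembly factor of succinate dehydrogenase, fell by 0.44 at 24 h. Slc13a3 was above the limit on 0 untreated arrays, so that its rise was built in by the filter. Egln3, a prolyl hydroxylase gene of the oxygen response, had the largest difference at 24 h, with 8.44 ± 2.02 in the knockout against 7.0 ± 1.26 in the wild type (log2, SD, n = 3 each; adjusted p = 1 in limma). Of 12 tested genes of the DNA methylation machinery Gadd45b rose by 1.68 and Mbd4 fell by 0.56 at 4 h, and none passed at 24 h. Mbd4 was above the limit on 0 arrays at 4 h and on 1 untreated array of each genotype. The other 6 tested galectin genes had no call in the averaged response or between genotypes, and their differences between the genotypes reached 0.40 for Lgals9 at 4 h (adjusted p = 0.98 in limma). Of the flavin monooxygenase genes 7 were on the array and 0 passed the filter on dim probes, so Gm4847 was the one gene of that cluster that was measured above the limit on 3 or more arrays.

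**Figure D5:**
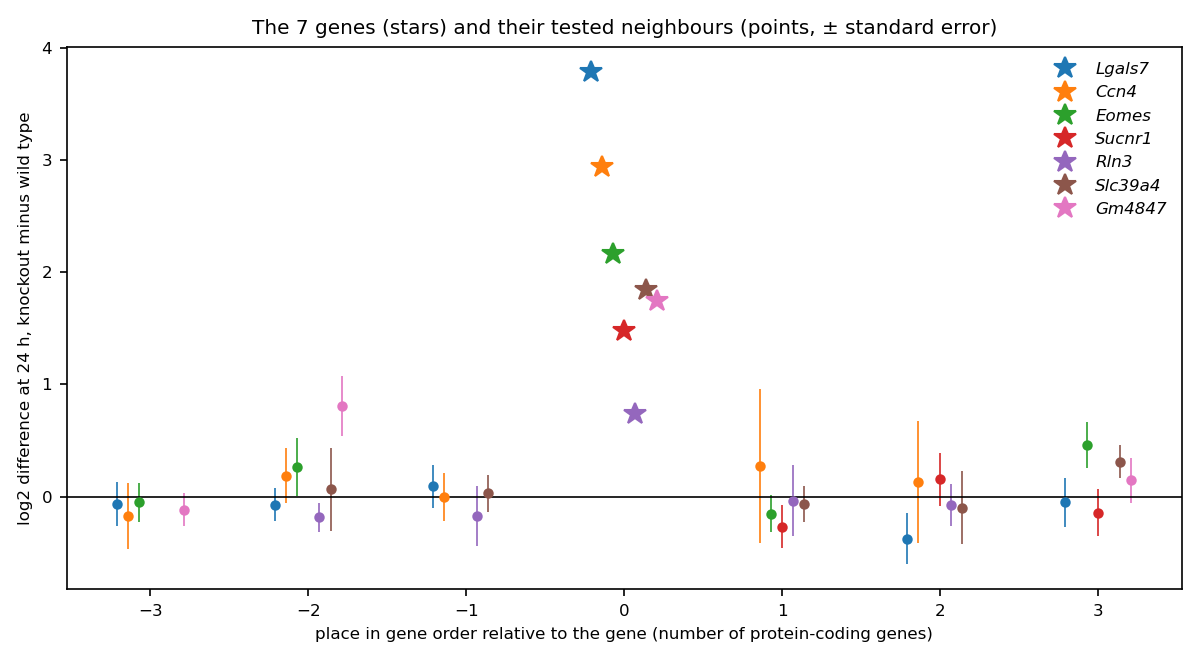
Log2 difference at 24 h, knockout minus wild type (vertical axis), of the 7 genes (stars) and of their tested protein-coding neighbours (points with the standard error from limma), by place in gene order on the chromosome (horizontal axis). The neighbours lie between −0.38 and 0.81, and the 7 genes between 0.74 and 3.79.

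The neighbours of the 7 genes on their chromosomes were measured too, 3 protein-coding genes on each side. Of these 42 genes 37 were on the array and 29 could be tested, and none passed limma's test between knockout and wild type in any condition (2, 4 and 2 at an unadjusted p under 0.05, and none with the slide or the replicate block). Of all 8985 tested genes 0.256%, 0.189% and 0.278% passed, and 527, 452 and 453 had an unadjusted p under 0.05. No call among 29 genes is near these shares, so nothing is read from it. At 24 h the differences of the neighbours ran from −0.38 to 0.81 with a median of −0.05. The largest was that of Pogk, the second gene before Gm4847, and the galectin gene Lgals4, next to Lgals7, had 0.09 ± 0.19. The genes on either side of Slc39a4, Cpsf1 and Vps28, had 0.03 ± 0.16 and −0.07 ± 0.16, and Il27ra and Rfx1 beside Rln3 −0.17 ± 0.27 and −0.04 ± 0.31. On either side of Ccn4, Sla had −0.57 ± 0.21 untreated and −0.30 ± 0.21 at 4 h, and Ndrg1 −1.06 ± 0.68 untreated and 0.27 ± 0.68 at 24 h. Gm4846 and Fmo9, on either side of Gm4847, did not pass the filter on dim probes. With array weights, Ctdspl near Eomes (0.52), Cyhr1 near Slc39a4 (0.40) and Pogk (0.74) passed at 24 h. As array weights also raised the calls over all genes at 24 h to 503 of 8985, nothing is read from these neighbours either.

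Over the 18 arrays the 7 genes correlated with each other to different degrees, from a Pearson correlation of 0.92 between Lgals7 and Ccn4 to 0.15 between Sucnr1 and Rln3. Among all tested genes, the 3 most like Lgals7 were Ccn4, Oosp1 (0.91) and Psma8 (0.89), and those most like Ccn4 were Lgals7, Fasl (0.87) and Lpl (0.86). Eomes was most like Slc39a4 (0.84), Epha3 and Lgals7 (both 0.83). Sucnr1 was most like Immt, Rab33a (both 0.84) and Galt (0.83). Rln3 was most like Cd27 (0.90), Efs (0.88) and Sema7a (0.87). Slc39a4 was most like Etl4 (0.95), Noxred1 (0.93) and C2 (0.91), and Gm4847 most like Lpl (0.88), Hsd17b1 (0.86) and Slc9b2 (0.85). These values describe 18 arrays that share cultures, slides and conditions, and most of the 7 genes were at background on many of them.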

How the data were processed

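Total RNA of mast cells was labelled as biotinylated cRNA with the Ambion TotalPrep kit and hybridised to Illumina bead arrays, per the labels' protocols. The deposited intensity table holds probe intensities on a linear scale without normalisation, and no source used here names the scanner software. The authors also deposited log2 values, which quantile normalisation of the intensities alone gave to within 0.000556. Neither table holds detection p-values, and 0 columns belonged to no sample.

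For this report, limma 3.58.1 in R 4.3.3 was used to correct the background (normexp, offset 50), to quantile-normalise the intensities and to take log2. A detection limit was set on each array so that a share of 0.01 of 1504 probes for olfactory and vomeronasal receptor genes lay above it, and probes above it on at least 3 arrays were kept (16669 of 45281, 30 receptor probes among them). Probe names came from the platform annotation (34885 probes with 1 symbol, 18 with several). Where a gene had several kept probes, the one of highest mean was used, which left 8985 genes. Group means of all 18 arrays were fitted together with no block, tested two-sided with empirical Bayes moderation in limma, and adjusted by Benjamini-Hochberg at 0.05. The procedure was tested on simulated data with independent noise on each array. That could not show how the test without a block behaves where arrays of 1 culture deviate together. The averaged response had been planned as a test for all 7 genes, and 4 are given without it because the filter or the picking rule fixed its direction. Slide and culture as blocks, other scalings, filters and weights, the authors' values and leaving out each culture were alternatives, and leaving out 2 single arrays was added after seeing the data.

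The genes and lists were chosen with earlier results of these data known. Named genes were all 7, with 3 protein-coding neighbours on each side, the list genes past the threshold (the 3 largest where more) or otherwise the largest, and the 3 genes most correlated with each. Arrays of the same number and genotype deviated together (18 pairs, correlation 0.13 to 0.62, all over 0.1), so the numbers were taken to pair the conditions. No 2 arrays were copies (highest correlation 0.985). On 1 slide, arrays of the other genotype correlated with a median of 0.33 (27 pairs).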

Additional observations from a re-analysis of the deposited data

How the results depend on the processing

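Among the tests of Rln3, Eomes and Slc39a4, only that of Rln3 at 4 h was past its threshold, and it kept its direction under every alternative run. Directions of genes outside the 7 were not followed one by one. Rln3 at 4 h passed under all 18 alternatives run, with an adjusted p of at most 0.00625 in limma, and Eomes at 24 h under 1 of 18, the replicate block. All of these alternatives used knockout values that entered the rule by which the genes were picked. Of 357 differences between knockout and wild type of these genes, 326 moved by less than 1 SD and 31 by more. Much of this count was fixed in advance, so it is no measure of stability. Other filters left the values as they were. Leaving out 1 culture or 1 array takes at most 1 of 3 values from a group, which cannot move the difference by 1 SD. The differences within the slides average to the main value. For the averaged response over all genes, 1378 calls at 4 h were 583 with median scaling, 2480 with the slide block, 850 with a fit to the compared groups only, 2656 with array weights and 2346 with the replicate block, and 735 calls at 24 h were 1814 with the slide block, 1621 with array weights, 1740 with the replicate block and 383 without the 24 h array of knockout culture 6. Leaving out 1 culture gave 181 (wild-type 8) to 1528 calls at 4 h, with 504 without knockout 3, 473 without knockout 4 and 660 without wild-type 6, and 221 (wild-type 8) to 422 (knockout 4) at 24 h. Between knockout and wild type, untreated, 23 calls were 7 with median scaling, 46 with the slide block, 10 with the compared groups only, 38 with array weights, and 10 (without wild-type 8) to 24 without 1 culture (12 without wild-type 9). At 4 h 17 calls were 38 with the slide block, 2 with the compared groups only, 58 with array weights, and 6 (without wild-type 9) to 24 without 1 culture (8 without wild-type 8). At 24 h 25 calls were 51 with the slide block, 9 with the compared groups only, 503 with array weights, and 11 (without wild-type 8) to 28 without 1 culture (12 without wild-type 6 or 9). The share of calls that were higher in the knockout was 69.6% untreated, 94.1% at 4 h and 92% at 24 h, against 58.7%, 86.8% and 76.5% with the slide block and 52.6%, 70.7% and 56.1% with array weights. The replicate block gave 23, 21 and 31 calls between the genotypes. The list calls of the averaged response were 8 at 4 h with the compared groups only, and at 24 h 20 with the slide block, 12 with array weights and 4 without the 24 h array of knockout culture 6. The causes were not tested, except that leaving out arrays leaves fewer samples. When the outlying array (wild-type 9 at 4 h) was left out, a choice made after seeing the data, 2016 genes passed in the averaged response at 4 h. Signals near the detection limit bound what can be said of Ccn4, Lgals7, Sucnr1 and Gm4847 in wild-type cells.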
